A study of Mus musculus with 34 samples.

Results

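The genes described here are 42 mouse genes for DNA replication and for making its nucleotide precursors, out of 21938 protein-coding genes. They were chosen by known function, and each was measured as the mean signal of H3K4me3 within 1000 bp of the annotated 5′ end of the gene (GENCODE M21, mm10). The assay was CUT&RUN, in which an antibody directs a nuclease to cut and release the chromatin that carries the mark. Cells were scraped from villi of small intestine that looked normal, from 2 wild-type (WT) mice of strain C57BL/6J and 2 ApcMin/+ mice of strain C57BL/6J-ApcMin/J, which carry 1 truncating allele of the tumour suppressor Apc in every cell. The labels give an age of 5 weeks, and the study's methods an age a week higher. No control track was subtracted. The comparison asks whether the mark differed between the genotypes in tissue without visible tumours.

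H3K4me3 marks the nucleosomes that flank the start sites of active and poised genes, above all at CpG-rich promoters. Replication starts where the origin recognition complex, with Cdc6 and Cdt1, loads the MCM2-7 helicase. Cdc45 and the GINS complex activate that helicase, and polymerases then copy both strands behind a sliding clamp. In the intestine this machinery is used by the dividing cells of the crypt, while villus cells have left the cell cycle. E2F transcription factors are known to drive many of these genes at the entry into S phase.

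The 4 libraries held 1430000 to 5470000 tags, and WT replicate 1 was the shallowest. ApcMin/+ replicate 1 stood apart: 43.3% of its signal lay in enriched regions, against 11.9% to 22.6% in the others. Its mean promoter signal was 6.85, against 1.76 to 2.59. Promoters of the enterocyte genes Vil1 and Alpi, a brush border protein and an alkaline phosphatase, had mean signals of 14.2 and 11.0. Of the 10 enterocyte markers 9 had a mean of at least 2, the lower limit used for testing, with Fabp2 the lowest of them at 3.91, and Sis, a brush border enzyme, had 1.91. Of 6 epithelial markers 5 reached it, and Krt19 had 0.95. Around their annotated 5′ ends, all 16 promoters of goblet, Paneth, enteroendocrine, immune and mesenchymal markers had a mean under 2. The most marked of them was Muc2, with 1.85, close to the value of Sis. Genes not expected in gut had at most 0.79. Among crypt markers the proliferation genes Mki67 and Top2a had 8.11 and 9.69, and the stem cell genes Lgr5, Ascl2 and Olfm4 had 1.22, 1.13 and 0.25. Some of these low values depend on the start used. Around the annotated transcript start with the highest signal, Sis had 5.83, Krt19 8.92, the mesenchymal gene Vim 2.55 and Ascl2 2.27. Muc2 stayed at 1.85. In such bulk samples, fewer marked cells and less of the mark per cell cannot be told apart.

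Short matches to the E2F recognition sequence, which the choice of the genes did not use, were more frequent in these promoters than in promoters at large. The letters searched, on both strands from 250 bases before to 50 bases after the start, were TTTCCCGC, TTTCGCGC, TTTGCCGC and TTTGGCGC. Around the annotated 5′ end, 12 of the 42 genes (28.6%) held a match, against 2.79% of all protein-coding promoters and 4.46% of the 9930 with a mean signal of at least 2. Around the annotated transcript start with the highest signal, 19 of 42 (45.2%) held one, against 2.90% and 4.63%. All 6 genes of the MCM2-7 helicase were among the 19. One window of 30 bases for each of these 6, and for 6 genes of other steps, is given below from GRCm38 (the mm10 assembly), 5′ to 3′ on the strand of the gene, with the match in capitals.
Mcm2, chr6:88898680-88898709, minus strand: cgtggtctagtTTTCGCGCgaaaaccggtg
Mcm3, chr1:20820275-20820304, minus strand: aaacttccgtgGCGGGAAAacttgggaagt
Mcm4, chr16:15637460-15637489, minus strand: agctacacgccTTTGCCGCtgtgattggcc
Mcm5, chr8:75109550-75109579, plus strand: ggaggctggttTTTCCCGCgaaagtcggct
Mcm6, chr1:128359734-128359763, minus strand: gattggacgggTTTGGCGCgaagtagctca
Mcm7, chr5:138171849-138171878, minus strand: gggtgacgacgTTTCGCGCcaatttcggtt
Orc1, chr4:108579416-108579445, plus strand: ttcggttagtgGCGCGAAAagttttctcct
Cdc6, chr11:98907830-98907859, plus strand: agtagagcggcTTTGGCGCgagttgacttt
Cdt1, chr8:122568036-122568065, plus strand: ggaactaccttTTTGGCGCcatggcgcaaa
Pcna, chr2:132252583-132252612, minus strand: agcgggagtccGCGGGAAAatgagtgctcc
Lig1, chr7:13278841-13278870, plus strand: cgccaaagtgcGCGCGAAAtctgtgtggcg
Rrm2, chr12:24708731-24708760, plus strand: tttgactcttcTTTCCCGCcaaagtgtctc

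In Mcm3, Orc1, Pcna and Lig1 the match lay on the opposite strand, so the reverse complement is in capitals. Matches were also found in Orc3, Gmnn, Gins3, Rfc3, Pold1, Pole and Pole2. A match is a description of the letters and does not show that a factor was bound. The 19 genes with a match had a median signal of 4.31 and the 23 without one had 4.36. CCAAT boxes (CCAAT, either strand) were in 28 of 42 promoters (66.7%), against 39.0% of all and 39.4% of the 9930. TATAAA was in 3 of 42 (7.14%), against 12.6% and 6.80%. The median ratio of observed to expected CpG was 0.87, against 0.52 in all promoters and 0.78 in the 9930.

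Most of the replication genes carried the mark in these bulk samples of scraped cells, at a moderate level. Which of the cells carried it was not tested. The median signal of the 42 genes over the 4 libraries was 4.34. By library their median was 2.79 and 2.40 in WT and 8.07 and 3.96 in ApcMin/+, so ApcMin/+ replicate 1 raised it. The median over the 4 libraries was 1.31 for all protein-coding promoters and 6.27 for the 9930 with a mean of at least 2. In each library the median gene stood between percentiles 65.3 and 75.3 of all promoters. A mean of at least 2 was reached by 38 of the 42 (90.5%), against 45.3% of all promoters. Pole2 was the lowest of the 38, with 2.09, and Lig1 was the highest of the 4 below the limit, with 1.83. The order of the 42 genes was similar between libraries, with Spearman's rho of 0.69 to 0.87 over genes that share depth and base composition within a library. The counting error was large at this depth, since the median gene of the 42 held 7.98 fragments in WT replicate 1 and 59.8 in ApcMin/+ replicate 1.

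**Figure D1:**
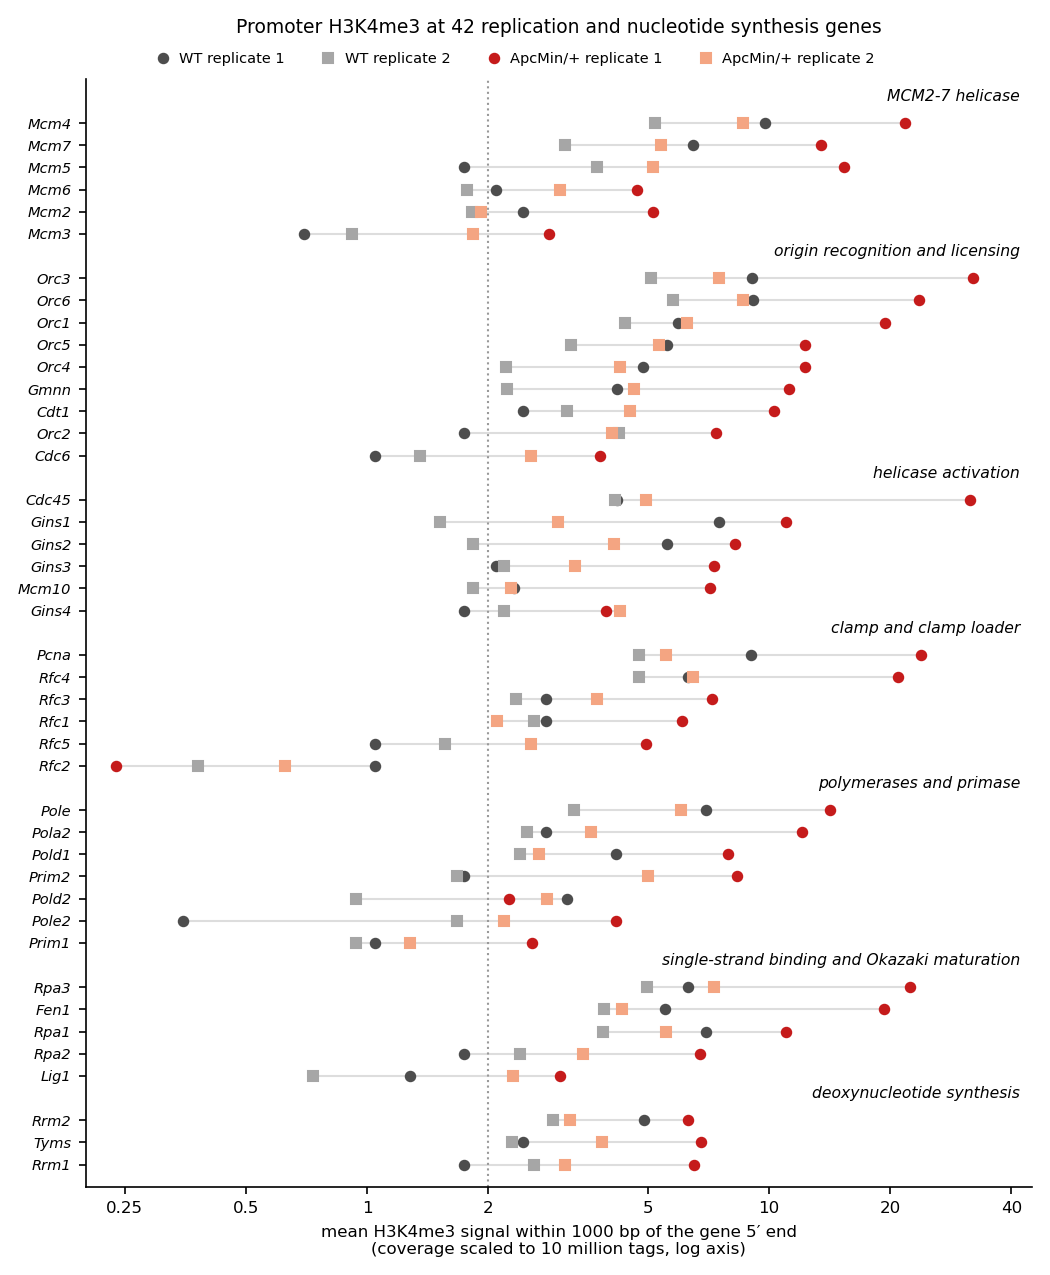
Mean H3K4me3 signal within 1000 bp of the 5′ end of each of the 42 genes in each of the 4 libraries, grouped by role, on a log axis. The dotted line marks a signal of 2, and ApcMin/+ replicate 1 was the highest library at 36 of the 38 genes that passed that limit on their mean.

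Among the genes of the MCM2-7 helicase, the ring that unwinds DNA at the fork, Mcm4 had the highest mean (11.3), then Mcm7 (7.10), Mcm5 (6.48), Mcm6 (2.89), Mcm2 (2.83) and Mcm3 (1.57). The 6 subunits work in one ring, yet their promoters spanned 1.57 to 11.3. At Mcm4 the signal was 9.76 and 5.21 in the WT libraries and 21.7 and 8.58 in the ApcMin/+ libraries, so the groups overlapped. For Mcm5 it was 1.74 and 3.72 in WT and 15.3 and 5.14 in ApcMin/+, and both ApcMin/+ libraries were above both WT libraries.

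The genes of origin recognition and licensing all passed the limit of 2. Orc3, a subunit of the origin recognition complex, was the most marked of the 42 genes, with a mean of 13.4. Its values were 9.06 and 5.09 in WT and 32.1 and 7.52 in ApcMin/+, which overlap. The other subunits followed in the order Orc6 (11.8), Orc1 (8.98), Orc5 (6.59), Orc4 (5.91) and Orc2 (4.36). Gmnn, the inhibitor of relicensing, had 5.54, and the loading factors Cdt1 and Cdc6 had 5.09 and 2.19.

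Cdc45, which joins the helicase when origins fire, had the highest mean of the helicase activation genes (11.2). It was at 4.18 and 4.14 in WT and at 31.5 and 4.93 in ApcMin/+, so a single library carried most of its mean. The GINS subunits Gins1, Gins2, Gins3 and Gins4 had means of 5.75, 4.93, 3.72 and 3.03, and the initiation factor Mcm10 had 3.39. Gins1 had 7.49 and 1.52 in WT and 11.0 and 2.98 in ApcMin/+, and WT replicate 1 was thus above ApcMin/+ replicate 2. The signal of Gins1 lay mostly before its start, with 11.1 over 1000 bp upstream and 0.41 over 1000 bp downstream. Abhd12 starts 659 bp upstream on the other strand, so the signal of Gins1 cannot be told apart from that of this neighbour.

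Pcna, the sliding clamp, had a mean of 10.8, from 9.03 and 4.75 in WT and 23.9 and 5.53 in ApcMin/+, and the groups overlapped. The clamp loader genes Rfc4, Rfc3, Rfc1, Rfc5 and Rfc2 had 9.59, 4.01, 3.40, 2.53 and 0.57. Rfc1, the large subunit, was at 2.79 and 2.61 in WT and at 6.08 and 2.10 in ApcMin/+, where replicate 2 was the lowest of the 4 libraries.

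Pole, the catalytic subunit of the leading-strand polymerase, had the highest mean among polymerases and primase (7.60). Its signal was 6.97 and 3.26 in WT and 14.1 and 6.02 in ApcMin/+, which overlap. Pola2, Pold1, Prim2, Pold2, Pole2 and Prim1 had means of 5.24, 4.29, 4.18, 2.28, 2.09 and 1.46. Prim2, the large primase subunit, was at 1.74 and 1.67 in WT and at 8.33 and 4.99 in ApcMin/+, with no overlap. Pold2, an accessory subunit of polymerase delta, was at 3.14 and 0.94 in WT and at 2.25 and 2.81 in ApcMin/+, and WT replicate 1 was the highest.

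Replication protein A coats single-stranded DNA, and its genes Rpa3, Rpa1 and Rpa2 had means of 10.2, 6.84 and 3.58. Rpa3 was at 6.28 and 4.96 in WT and at 22.4 and 7.30 in ApcMin/+, so the groups did not overlap. The nuclease and ligase that finish Okazaki fragments, Fen1 and Lig1, had 8.25 and 1.83. In deoxynucleotide synthesis, the ribonucleotide reductase subunits Rrm2 and Rrm1 had 4.31 and 3.49, and thymidylate synthase, Tyms, had 3.84. Rrm2 was at 4.88 and 2.91 in WT and at 6.27 and 3.20 in ApcMin/+, which overlap.

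Many of the most marked genes shared their promoter with a neighbour. At 12 of the 42 (28.6%) another protein-coding gene started on the opposite strand within 1000 bp, against 10.9% of all promoters and 21.5% of the 9930. These were Mcm4 with Prkdc, Mcm7 with Ap4m1, Orc1 with Prpf38a, Orc3 with Rars2, Orc4 with Mbd5, Orc6 with Vps35, Cdc45 with Ufd1, Gins1 with Abhd12, Pole with Pxmp2, Rpa1 with Smyd4, Rpa3 with Umad1 and Fen1 with Tmem258. Of the 10 most marked genes 8 were in such pairs, and none of the 10 least marked. The median signal was 8.62 in the 12 and 3.65 in the other 30, and the same medians over all promoters were 8.08 and 0.96. The signal of the 2 starts of a pair cannot be told apart, since the windows overlap. The sequence between paired starts is shown for 3 pairs, to show how close the starts lie. It is read from GRCm38 on the strand of the replication gene.
Orc3 to Rars2, 12 bases, chr4:34614945-34614956, minus strand: gaagtcgcctct
Orc1 to Prpf38a, 86 bases, chr4:108579337-108579422, plus strand: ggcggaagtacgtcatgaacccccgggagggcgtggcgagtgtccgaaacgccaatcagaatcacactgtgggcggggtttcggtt
Rpa3 to Umad1, 114 bases, chr6:8259174-8259287, minus strand: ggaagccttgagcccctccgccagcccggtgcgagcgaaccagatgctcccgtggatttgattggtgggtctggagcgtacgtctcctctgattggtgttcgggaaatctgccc

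The pairs also differed from the other genes in where the mark lay on average. In the 30 genes without a neighbour start, the mean signal over 1000 bp after the start was 1.72 to 1.88 times that over 1000 bp before it in the 4 libraries. In the 12 paired genes the same ratio was 0.73 to 0.85, and over the 9930 promoters it was 1.66 to 1.79. Single genes varied: the upstream side held more in 8 of the 12, and not in Mcm7, Orc4, Orc6 and Fen1. At these exceptions the neighbour started downstream of the annotated 5′ end, as it also did at Cdc45, where the upstream side held more. The upstream side also held more in 6 of the 30, namely Mcm3, Mcm5, Cdt1, Rfc2, Rfc4 and Prim2. Among the 9930 promoters it held more in 47.3% of those with a neighbour start and in 16.6% of the others.

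**Figure D2:**
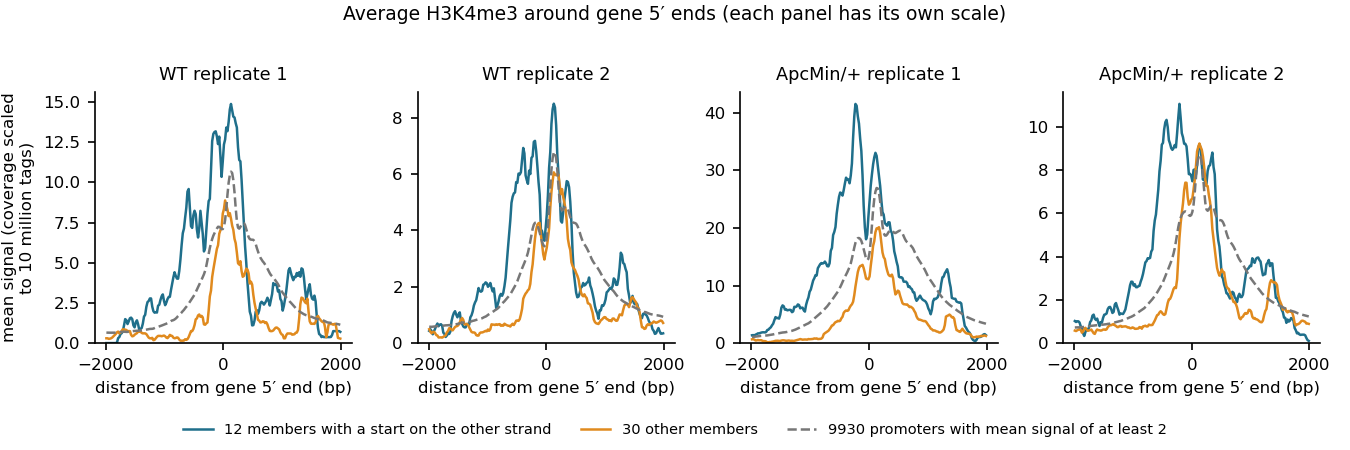
Mean H3K4me3 signal by distance from the gene 5′ end, in bins of 20 bp, for each library on its own linear scale from 0. On average the 12 genes with a start on the other strand (blue) have signal on both sides of the start. Single genes among them differ: Gins1 had most of its signal before the start and Orc4 most of it after. The 30 others (orange) have on average more after the start, as do the 9930 promoters (dashed).

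Of the 42 genes, 38 (90.5%) lay in a stretch of enriched signal, defined as at least 5 times the genome-wide mean of the 4 libraries, against 49.8% of all promoters and 96.3% of the 9930. The median stretch was 1450 bp long, against 1900 bp for all promoters in one, with a range of 600 to 2800 bp. Rfc2, Prim1, Lig1 and Gins1 lay in none at their annotated 5′ end. Enterocyte marker genes had longer stretches, with a median of 5300 bp for 9 genes.

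For some genes another annotated start had more of the mark than the annotated 5′ end. Lig1 had a mean of 1.83 at its annotated 5′ end and 10.1 at another annotated transcript start 1543 bp away. Rfc2 had 0.57 at its 5′ end and 2.05 at a start 1391 bp away. The same values were 5.91 and 12.7 for Orc4, at 1001 bp, and 7.10 and 12.6 for Mcm7, at 607 bp. These last starts lie 232 bp from that of Mbd5 and 187 bp from that of Ap4m1, so the signal there cannot be told apart from that of the neighbour. At these starts 40 of the 42 genes reached a signal of 2. Mcm3 and Prim1 stayed below it, with 1.57 and 1.46. The E2F-type matches of 7 genes (Mcm2, Mcm7, Gins3, Pcna, Pold1, Lig1 and Rrm2) were found around the start with the highest signal and not around the annotated 5′ end.

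**Figure D3:**
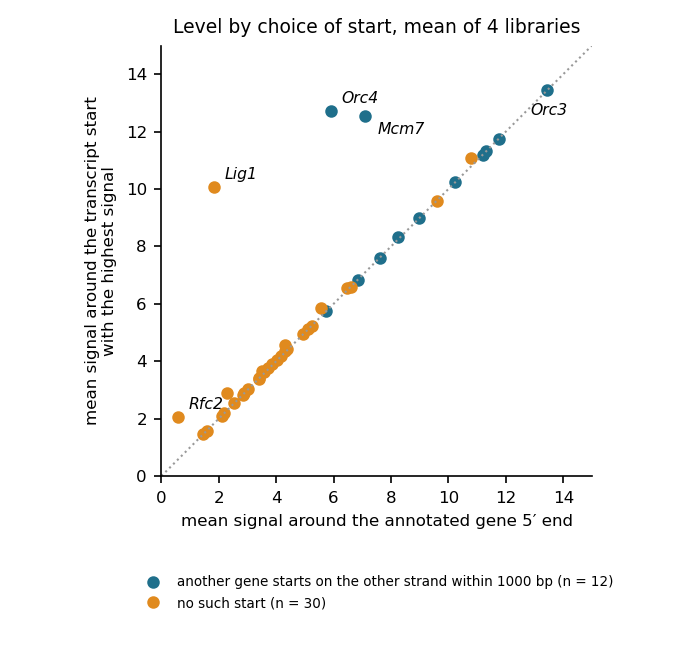
Mean signal of the 4 libraries around the annotated gene 5′ end (x axis) and around the annotated transcript start with the highest signal (y axis) for each of the 42 genes. The dotted line marks equal values, and Lig1, Orc4, Mcm7 and Rfc2 lie farthest above it.

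Between genotypes, none of the 38 genes that passed the limit differed past the threshold, in the signal as deposited or relative to the median promoter. As deposited, the signal was higher in ApcMin/+ at 38 of 38 genes, with a median difference of 0.86 in log2(signal + 1), and at 99.2% of the 9930 promoters, with a median of 0.85. The limit was set on the mean of the 4 libraries, so promoters low in WT could pass it through ApcMin/+. The limma test called 0 of the 38 and 0% of the 9930 at an adjusted p under 0.05, and 0 and 132 had an unadjusted p under 0.05. The adjusted p-values from limma for the 38 genes were 0.68 to 0.83. Without ApcMin/+ replicate 2, limma called 27 of the 38 (71.1%) and 65.2% of the 9930 promoters. That fit sets ApcMin/+ replicate 1 alone against the WT libraries, takes its spread from the 2 WT libraries and assumes that the lone library varies like them. Without ApcMin/+ replicate 1, it called none, and the median difference was 0.27 in the 38 genes and 0.13 in the 9930. An exact permutation test of 2 libraries against 2 cannot give a p below 0.333.

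Both ApcMin/+ libraries were above both WT libraries at 19 of the 38 genes, against 38.5% of the 9930 promoters, and both were below at 0, against 0.161%. Relative to the median promoter of each library, the groups did not overlap at 5 genes that were higher (Orc1, Rfc4, Pola2, Prim2 and Rpa3), against 13.1% of promoters. They did not overlap at 4 that were lower (Mcm2, Rfc1, Pold1 and Rrm2), against 14.3%. Relative to the median promoter, the 38 genes had a median difference of 0.01, with 19 above 0, while limma called 0 of the 38 and 0.121% of the 9930. At an unadjusted p under 0.05 there were 2 of the 38, Mcm5 and Cdc45, and 294 of the 9930.

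The largest relative differences among the 38 were at Mcm5, Prim2 and Cdc45. Mcm5 differed by 0.62 ± 0.30 (SE, n = 2 per genotype), Prim2 by 0.61 ± 0.37 and Cdc45 by 0.57 ± 0.28, with an adjusted p from limma of 0.9995 for each. These values rest on single libraries: Mcm5 was at 0.0079 without WT replicate 1 and at 1.24 without WT replicate 2, Cdc45 at 0.074 without ApcMin/+ replicate 1 and 1.08 without replicate 2, and Prim2 at 0.20 without ApcMin/+ replicate 2 and 1.02 without replicate 1. The smallest were at Rrm2, Pold2 and Rfc1. Rrm2 differed by -0.65 ± 0.33, Pold2 by -0.54 ± 0.55 and Rfc1 by -0.51 ± 0.40, with the same adjusted p from limma. With 1 library left out, Rrm2 was at -0.98 to -0.32 and Rfc1 at -0.70 to -0.32, with the lowest of Rrm2 without ApcMin/+ replicate 2 and its highest without replicate 1. Pold2 was at -1.38 without ApcMin/+ replicate 2 and at 0.30 without replicate 1. The most marked genes of the other roles were closer to 0, with Mcm4 at -0.002 ± 0.30, Orc3 at 0.25 ± 0.31, Pcna at -0.11 ± 0.29, Pole at -0.03 ± 0.28 and Rpa3 at 0.23 ± 0.29. As deposited, the differences of these 11 genes were 0.20 to 1.48, with adjusted p-values from limma of 0.68 to 0.83.

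**Figure D4:**
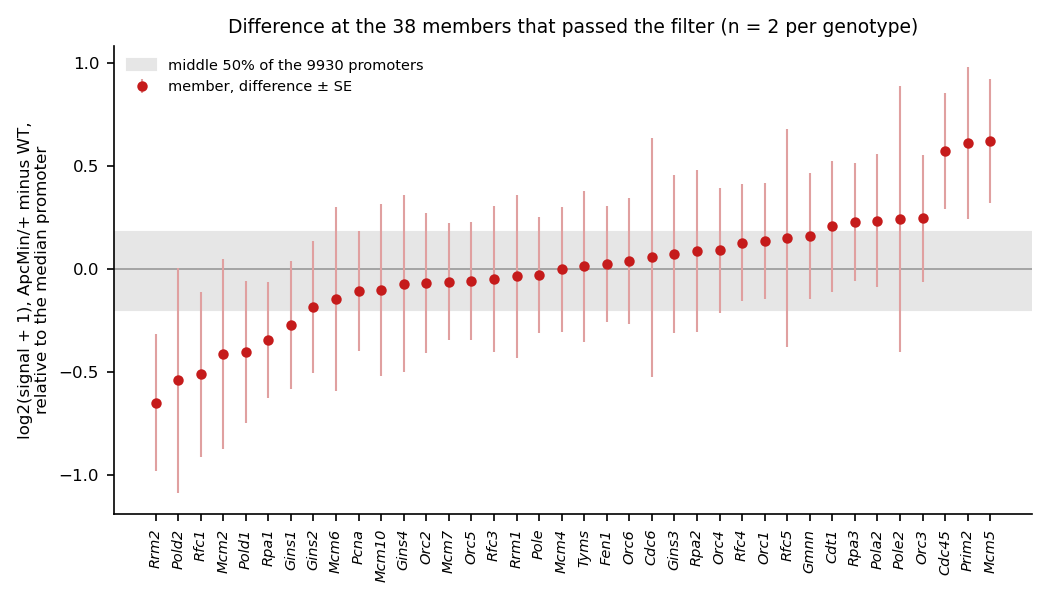
Difference in log2(signal + 1), ApcMin/+ minus WT, relative to the median promoter of each library, for the 38 genes, with the SE of the limma fit. The grey band is the middle 50% of the 9930 promoters, from -0.20 to 0.18, and the error bars of most genes reach into it.

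Other genes of the same pathways were also marked. Of the 30 promoters of 29 further replication fork factors 28 passed the limit, with Top2b, a topoisomerase, the most marked (13.0). Chtf8 is counted under separate gene entries, each with a mean of 6.27. Of 8 genes of replication-coupled chromatin assembly 7 passed, with the histone mRNA binding factor Slbp the highest (11.8). Of 25 further nucleotide synthesis genes 20 passed. Of 14 genes of the E2F and pocket protein families 12 passed, led by Rbl2, a pocket protein (8.95). In these 4 lists 0 of the 67 promoters tested passed the threshold in either direction, as deposited or relative to the median promoter. The shares of the 9930 promoters that passed were 0% and 0.121%. The median relative difference of the 67 was 0.06, with 36 of 67 above 0, against 48.8% of the 9930.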

How the data were processed

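H3K4me3 CUT&RUN tracks of villus cells were used for 2 WT and 2 ApcMin/+ mice. Other samples of the series were not analysed here, and those whose labels conflict on genotype were left unassigned. Per the labels and the study's methods, Bowtie2 was the aligner (mm10), Picard removed duplicates, fragments of about nucleosome size were kept and HOMER wrote the tracks. The deposited values are signal: the authors brought the coverage of every library to 10000000 tags. This does not correct for how much of a library lies in enriched regions.

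The members and lists were chosen with earlier results of these data known. A promoter was the 1000 bp on each side of the annotated 5′ end, for 21938 protein-coding genes in GENCODE M21 on 21 chromosomes. For the 9930 promoters with a mean of at least 2, log2(signal + 1) was fitted with limma 3.58.1 (trend, R 4.3.3), and p-values were adjusted by Benjamini-Hochberg with a threshold of 0.05. The fit was repeated after the median promoter of each library was subtracted. Differences on this scale understate those of low promoters. The fit of the signal as deposited was tested on simulated data with the real depths: of 9930 promoters, 200 were given a 4-fold change, 96% of those were recovered and 4 others were called. The simulated spread between libraries was set small and equal in all, and no simulated library stood apart as ApcMin/+ replicate 1 does. The recovery therefore cannot tell how many such changes would be called in the real data, where Orc3 had an SE of 1.26 as deposited. Fragments were the summed signal divided by the signal per tag, and they give counting error only. An enriched stretch was made of 100-bp bins over 5 times the genome-wide mean, merged across gaps up to 500 bp and kept from 300 bp on. All 42 genes are named with their level. The most marked gene of 1 pathway list is not reported here. Differences are given for the most marked gene of each role and for the 3 largest and 3 smallest relative differences. Sequences came from GRCm38 in RefSeq. The labels number the replicates but do not say more of them, so p-values measure the spread between these libraries. Alternatives were other scalings, pseudocounts (0.1 and 5), limits, windows (500 and 2000 bp) and starts, a replicate block, and each library left out. Other steps used Python 3.11.15, numpy 2.4.6 and pandas 2.3.3.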

Additional observations from a re-analysis of the deposited data

How the results depend on the processing

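With 2 libraries per genotype, a single library can move a difference strongly, and low fragment counts limit single promoters. No gene of the 38 passed the threshold under any alternative except without ApcMin/+ replicate 2. Over all promoters the count of calls was 12 with centring on the median promoter, 2 with quantile normalization and 0 with the other pseudocounts, limits, windows, starts and the scaling to background. With the replicate number as a block it was 1, and 15 with the block and centring together, which was chosen after seeing the data; the block changed no call among the 38 genes. Same-numbered libraries deviated together with a correlation of 0.20 over only 2 pairs. It was taken over promoters and leaves out a shift shared by all promoters, so it cannot decide whether the numbers pair the libraries. Replicate 1 had more of its signal in enriched regions in WT (22.6%, against 11.9%) and in ApcMin/+ (43.3%, against 16.4%). Without centring, leaving out 1 library gave 0 to 6479 calls over all promoters and 0 to 27 among the 38 genes. The median difference of the 38 genes was then 0.27 to 1.38, and with centring it was -0.20 to 0.14. Relative to the median promoter the count of 12 became 0 to 30.

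The median difference of the 38 genes, 0.86 as deposited, was 0.0060 with centring, with or without the block, 0.033 with quantile normalization and 0.50 with a pseudocount of 5. The median signal of the 42 genes, 4.34, was 6.89 with a window of 500 bp and 2.74 with 2000 bp. Centring, with or without the block, turned the direction at Mcm4 (-0.0018), Pcna (-0.11), Rfc1 (-0.51), Pold2 (-0.54), Pole (-0.031) and Rrm2 (-0.65). Quantile normalization turned it at Pcna (-0.14), Rfc1 (-0.50), Pold2 (-0.235) and Rrm2 (-0.55). Leaving out 1 library, with or without centring, gave -0.18 to 1.48 at Mcm4, -0.0054 to 2.08 at Orc3, -0.35 to 1.71 at Pcna, -0.70 to 0.94 at Rfc1, -1.38 to 0.86 at Pold2, -0.26 to 1.38 at Pole and -0.98 to 0.60 at Rrm2. Mcm5, Cdc45, Prim2 and Rpa3 kept their direction, with lowest values of 0.0079, 0.074, 0.20 and 0.15. Without ApcMin/+ replicate 2, Mcm5, Cdc45, Prim2 and Rpa3 passed the threshold, with differences of 1.79 to 2.66, in a fit of 1 ApcMin/+ library that takes its spread from the 2 WT libraries. The cause was not tested.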
